A study of Mus musculus with 6 samples.

Results

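The genes described here encode the transport machinery and the gate of the primary cilium. They were taken as every gene whose symbol in the platform's annotation names an intraflagellar transport protein (Ift), a Bardet-Biedl syndrome protein (Bbs), a tectonic (Tctn), a nephrocystin (Nphp), a kinesin-2 subunit (Kif3a, Kif3b, Kif3c, Kifap3), a cytoplasmic dynein-2 subunit (Dync2), or Tmem67, Tmem216, Cc2d2a or Arl13b (no Arl13b probe set was matched). The rule found 35 of the 18193 genes with a probe set of their own, and each was read from its probe set of highest mean signal. Total RNA of 6 mouse neural stem cell lines, described as independent by the submitters, had been hybridised to 6 Affymetrix arrays, with 3 lines labelled FoxO-null and 3 labelled wild-type. The labels give no strain, age, brain region or culture condition, and name neither the deleted FoxO genes nor the means of deletion, so that no more can be said of the genotype. Values are MAS5 signals, a linear brightness per probe set. The fold changes below are differences of log2(signal + 5.94), lines labelled FoxO-null minus lines labelled wild-type, ± the standard error of the limma fit across all genes.

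The primary cilium is a single antenna-like extension of the cell surface, built on the mother centriole and taken down again before a cell divides. Proteins are carried to its tip by the IFT-B complex on kinesin-2 and back to its base by the IFT-A complex on dynein-2, the BBSome carries membrane proteins out of it, and the transition zone at its base decides what may enter. In neural progenitors the cilium is known as the place where Hedgehog signals are received. Its genes are textbook targets of the RFX transcription factors, whose binding site is built of copies of GTTGCC.

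That shared sequence was visible in the promoters of the genes. RefSeq windows of the GRCm38.p6 build, from 250 bases before to 50 bases after a start site, were held for 30 of the 35 genes, and 15 of these (50%) had GTTGCC on either strand. Over all genes with a window the share was 14.1% (3821 of 27025). The FoxO core GTAAACA was found in 0 of the 30 and in 4.05% of all genes, and the E2F core TTTCGCGC in 0 of the 30 and in 0.374% of all genes. A facing pair of RFX motifs, which overlaps the single motif, was added after the data were seen. It was searched in a looser form, with any base allowed at a position within each motif and between the motifs. This looser pair was in the windows of 2 of the 30 genes, Bbs7 and Tctn1, and of 0.529% of all genes. Both motifs of the pair in Tctn1 were exact copies of the single motif. In Bbs7 the motif on the left was an exact copy and the one on the right was not. The stretches of 30 bases below, on the gene's strand, show the single site in Ift88, Tctn2 and Kif3a and the looser pair in Bbs7 and Tctn1. Other genes with the single site are not shown. Capitals mark the matched motif, and GGCAAC is GTTGCC read from the other strand.
Ift88: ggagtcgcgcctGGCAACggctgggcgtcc
Tctn2: cattgattggtgGTTGCCatggctgcaggc
Kif3a: caccccgcaggcGTTGCCccagtctagcgt
Bbs7: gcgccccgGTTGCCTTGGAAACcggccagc
Tctn1: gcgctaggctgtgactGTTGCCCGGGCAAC

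These lie at chr14:57424080-57424109 (plus strand) for Ift88, chr5:124598750-124598779 (plus) for Tctn2, chr11:53567259-53567288 (plus) for Kif3a, chr3:36613489-36613518 (minus) for Bbs7 and chr5:122264411-122264440 (minus) for Tctn1. The sites of Ift88, Tctn2 and Tctn1 began at bases 22, 14 and 37 of the transcribed part, and those of Kif3a and Bbs7 lay 98 and 121 bases before the start. The ranges of genes with and without GTTGCC overlapped in the comparison of the lines. The median log2 fold change was -0.13 over the 15 with it, from -0.83 to 0.24, and -0.05 over the 15 tested genes whose window lacked it, from -0.86 to 0.27. A match is a string of letters and says nothing on whether a factor binds there.

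The signals of the FoxO genes went against the labels. Of 9 probe sets for Foxo1, Foxo3 and Foxo4, 8 had a positive log2 fold change and in 5 every FoxO-null signal exceeded every wild-type signal. The highest Foxo1 probe set read 77.9, 77.8 and 100.3 against 20.3, 20.4 and 31.7, the highest Foxo3 probe set 578, 667 and 856 against 267, 611 and 507, where the groups overlapped, and the highest Foxo4 probe set 178, 57.2 and 189.9 against 5.56, 4.14 and 17.1. Where these probe sets lie relative to a deleted part is not known here, so every direction below follows the labels and not a checked genotype. All arrays had the same trimmed mean, and the 3′ over 5′ ratio of the Gapdh control lay between 0.789 and 0.928. That of the Actb control did not overlap between the groups, at 1.03 to 1.07 in the FoxO-null group and 1.09 to 1.12 in the wild-type group, and the 5′ signal of 18S was 211 on wild-type 1 and 23.5 to 38.9 on the other arrays. The part of these differences in the values below was not tested. The brightest of 27 Bacillus subtilis control probe sets, used as each array's background level, lay between 19.2 and 27.6 in the FoxO-null group and between 14.4 and 19.1 in the wild-type group. All 7 progenitor markers, Nes and Sox2 among them, were above it on all 6 arrays. Of the 12 ependymal and motile cilium markers, 1 was, the transcription factor gene Foxj1, and Ccdc153, Spag6 and Tmem212 were above it on no array.

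No cilium transport gene differed between the groups past the threshold. Of the 35 genes, 34 passed the filter on dim probe sets. Of these, 0 reached a limma adjusted p under 0.05, where 0.0395% of the 12663 genes tested did (5 genes), and the smallest adjusted p was 0.352. Without adjustment, 2 of 34 (5.88%) had a limma p under 0.05, against 10.2% of all genes. Of these, 1 was lower (4.9% of all genes) and 1 higher (5.31% of all genes). Log2 fold changes of at least 0.5 in size were seen in 2 (5.88%), against 10.9% of all genes. All 3 lines of one group lay above all 3 of the other in 6 of the 34. Of these, 3 (8.82%) had the lines labelled FoxO-null above, against a background of 8.08%, and 3 (8.82%) had them below, against 7.93%. These shares lie near the background or under it.

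The direction was more often negative than over all genes, and small. Positive log2 fold changes were found in 12 of 34 genes (35.3%), against 51.8% of all genes, and the median was -0.07 against 0.01 over all genes. The share of positive changes depended on the processing and on single lines. It was 32.4% with median centring, 44.1% with the mean of all probe sets of a gene and 47.1% without FoxO-null 1. Leaving out any other line gave 38.2% to 44.1%. The share over all genes was not counted for these alternatives. The median size of a change was 0.16, against 0.18 over all genes, and 21 of the 34 were under 0.2 in size. For 28 of the 34 the 95% interval of the fit lay within a doubling or halving, and for 9 it lay within -0.5 and 0.5. The standard errors ran from 0.12 to 0.53. With 3 lines per group, changes near a doubling or halving could be missed, as well as smaller ones. Ift88 at -0.83 and Tmem216 at -0.86 did not pass.

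**Figure D1:**
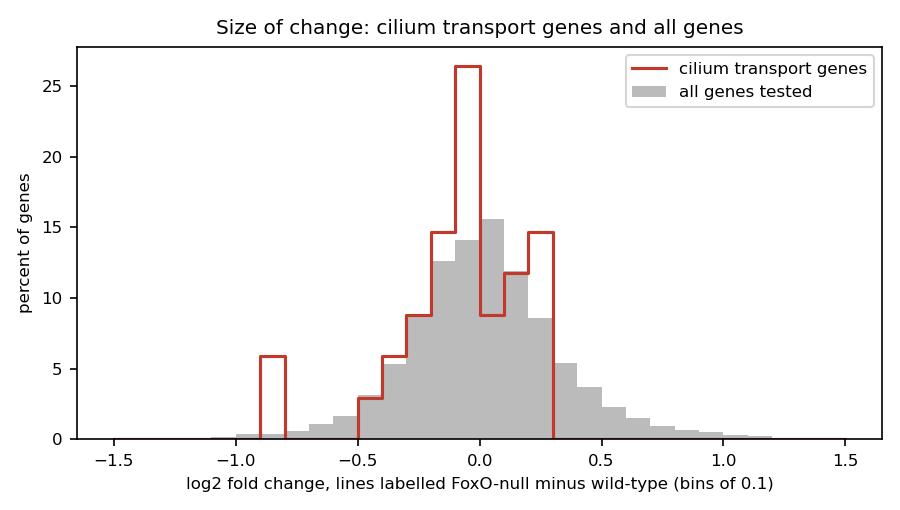
Distribution of log2 fold changes (x axis, bins of 0.1, lines labelled FoxO-null minus wild-type) as the percent of genes (y axis), for the 34 cilium transport genes tested (red outline) and all 12663 genes tested (grey bars). The cilium genes lie between -0.86 and 0.27, and 2 of them stand apart on the lower side, Tmem216 and Ift88.

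IFT-B, the complex that carries cargo towards the ciliary tip, held the gene of smallest p. Ift88, a core subunit whose loss leaves cells without cilia, read 22.0, 36.1 and 23.2 on the lines labelled FoxO-null and 49.1, 48.8 and 58.6 on those labelled wild-type. Every FoxO-null signal was below every wild-type signal, though all 6 were dim, and FoxO-null 3 lay under its array's background level of 26.9. The means were 27.1 ± 7.83 and 52.2 ± 5.53 (SD, n = 3 lines each), a log2 fold change of -0.83 ± 0.29 with a 95% interval of -1.46 to -0.20. The limma p was 0.0138 and 0.352 after adjustment over all genes, so the difference did not pass, and it ranged from -1.02 to -0.73 when 1 line was left out. With an offset of 32 it was -0.52, and the gene was not tested under a filter at the 60th percentile. The gene has 1 probe set, so no other one can be set beside it.

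Ift22, a small GTPase of the same complex, read 94.1, 123.2 and 98.5 against 127.1, 122.6 and 167, with FoxO-null 2 just above wild-type 2 and the groups otherwise apart. Its log2 fold change was -0.38 ± 0.18 (limma adjusted p 0.518), and -0.24 without wild-type 3. Ift20, which also works at the Golgi, had the opposite order in all lines and read 137, 129 and 135 against 126, 100.4 and 107. Its log2 fold change was 0.26 ± 0.16 (limma adjusted p 0.620), with the nearest FoxO-null and wild-type lines at 129 and 126.

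The remaining 8 IFT-B genes overlapped between the groups in the probe sets of highest mean signal. Ift52, a core subunit, was at -0.27 ± 0.22, from 77.5 to 135 on the lines labelled FoxO-null and from 101.9 to 136 on those labelled wild-type. Ift27, a GTPase needed for the exit of BBSome cargo, was at -0.18 ± 0.17. Ift46 was at 0.13 ± 0.14 and Ift172, the largest IFT-B protein, at 0.07 ± 0.18. Ift74 and Ift81, which bind tubulin as a pair, were at -0.06 ± 0.14 and -0.03 ± 0.21, Ift57 at -0.08 ± 0.17 and Ift80 at -0.07 ± 0.31. Over the 11 genes the median was -0.07 and 3 were positive, against 51.8% of all genes. Of the 11, 1 had an unadjusted limma p under 0.05, against 10.2% of all genes.

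The IFT-A genes, which serve the return trip and the entry of membrane receptors, had log2 fold changes between -0.04 and 0.26. Ift43 read 251, 231 and 206 against 198, 204 and 171. Its FoxO-null lines were all above its wild-type lines by a narrow margin (0.26 ± 0.14 on the log2 scale, limma adjusted p 0.569). Ift122 read 125, 188 and 141 against 147, 138 and 138, so that the lines labelled FoxO-null were both the highest and the lowest (0.08 ± 0.17). Ift140 was at -0.04 ± 0.14, with an interval of -0.34 to 0.25.

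**Figure D2:**
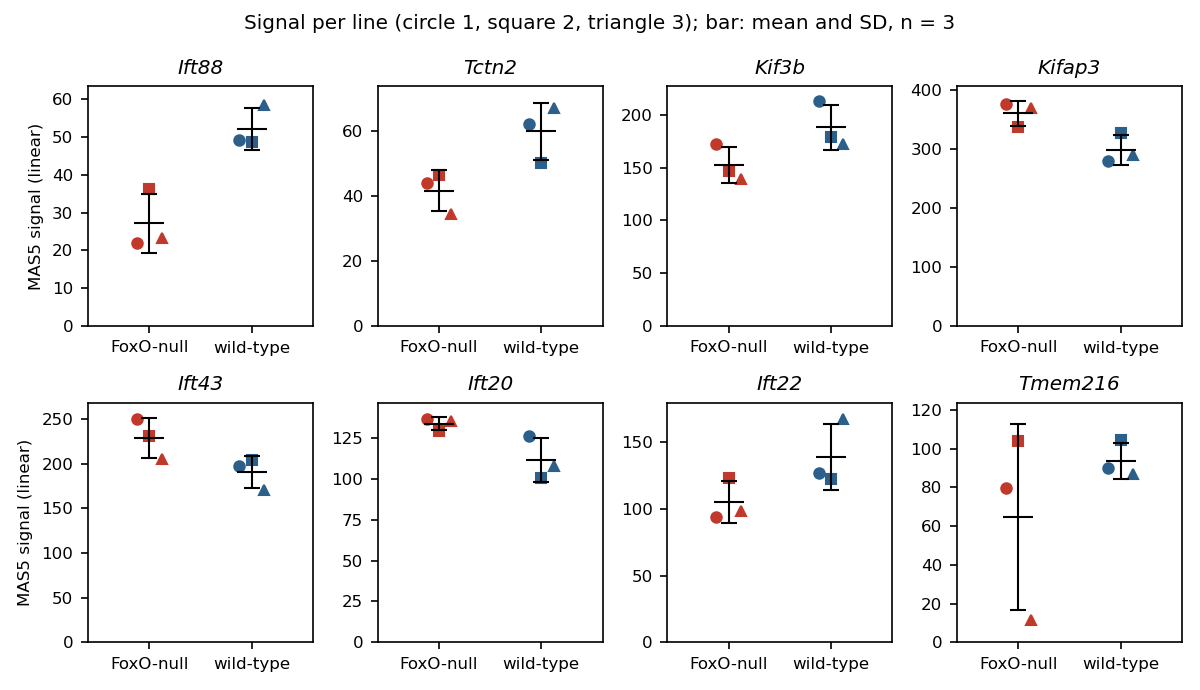
MAS5 signal (y axis, linear, from 0) of 8 cilium transport genes in the 3 lines labelled FoxO-null (red) and the 3 labelled wild-type (blue), with circle, square and triangle for lines 1 to 3 and a bar for the mean and SD. The groups do not overlap for Ift88, Tctn2, Kif3b, Kifap3, Ift43 and Ift20, and 1 line, FoxO-null 3 at 11.4, sets the FoxO-null mean of Tmem216.

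The subunits of kinesin-2, the motor that runs towards the ciliary tip, lay on both sides of 0. Kifap3, the adaptor that links the motor to its cargo, read 376, 337 and 370 against 279, 326 and 289. The lines labelled FoxO-null were all higher, and the log2 fold change was 0.27 ± 0.12 (limma p 0.0480, adjusted p 0.483). A second Kifap3 probe set overlapped between the groups and had the same size of change, 0.27 ± 0.22. Kif3b, one of the motor subunits, had the opposite order, with 172, 147 and 140 against 213, 179 and 173. The highest FoxO-null line was barely below the lowest wild-type line, and the log2 fold change was -0.29 ± 0.15 (limma adjusted p 0.557). Its 3 other probe sets overlapped between the groups, and 1 of the 4 had a positive fold change, 0.02 ± 0.15. The mean of the 4 gave -0.13. Kif3a, the partner of Kif3b, was positive in all 4 of its probe sets, from 0.10 to 0.21. Its main probe set read 422, 438 and 464 against 392.4, 527 and 284, so the spread lay in the wild-type lines. Kif3c, the subunit best known from neurons, was at -0.13 ± 0.12.

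Dynein-2, the return motor, was represented by its heavy chain gene Dync2h1 and its light intermediate chain gene Dync2li1. Dync2h1 read 166, 151 and 124 against 148, 147 and 107, a log2 fold change of 0.14 ± 0.18. Dync2li1 varied little, from 90.4 to 96.5 in the lines labelled FoxO-null and from 94.2 to 105 in those labelled wild-type, at -0.08 ± 0.17. The groups overlapped for both, with limma adjusted p of 0.844 and 0.904.

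None of the 6 BBSome genes had an unadjusted limma p under 0.05, against 10.2% of all genes. Bbs5 had the smallest p of them, and its log2 fold change was -0.40 ± 0.37 (limma adjusted p 0.765) with signals of 27.2, 17.4 and 20.8 against 44.6, 19.3 and 31.0. Leaving out wild-type 1 gave -0.16, leaving out wild-type 2 gave -0.66, and an offset of 32 gave -0.23. Bbs2 read 70.7, 52.9 and 83.5 against 31.8, 63.2 and 81.9, with wild-type 1 the lowest, a log2 fold change of 0.27 ± 0.31 that was -0.08 without that line and 0.53 without wild-type 3. Bbs1 was at -0.28 ± 0.40, Bbs4 at -0.08 ± 0.30, Bbs9 at -0.05 ± 0.26 and Bbs7 at 0.03 ± 0.22. The chaperonin-like genes Bbs10 and Bbs12, which help the BBSome assemble, were at 0.00 and -0.15 ± 0.39. Their signals, 15.5 to 36.0 over both genes and all lines, lay close to the background levels, and Bbs12 was above them on 3 of the 6 arrays.

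Tctn2, a tectonic of the complex that gates membrane proteins, read 44.0, 46.6 and 34.6 against 62.4, 50.3 and 67.3. All lines labelled FoxO-null were lower, and the log2 fold change was -0.47 ± 0.24 (limma adjusted p 0.548). The related Tctn1 and Tctn3 were at -0.13 ± 0.26 and 0.24 ± 0.23, and their groups overlapped. Cc2d2a, of the same complex, was at 0.16 ± 0.16 and Nphp4, of the nephrocystin module, at -0.18 ± 0.26.

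Tmem216 had the widest error of all 34 genes. It read 79.6, 103.9 and 11.4 against 90.2, 104.3 and 86.7, so that 5 lines were alike and FoxO-null 3 was under its background level. The log2 fold change was -0.86 ± 0.53 (limma adjusted p 0.614) and was -0.04 without FoxO-null 3, -1.37 without FoxO-null 2, -0.53 with an offset of 32 and -0.31 as the mean of its 2 probe sets. Its other probe set read 76.7 on that line, the highest of the 6, and had a positive fold change of 0.24 ± 0.31. The low value belonged to 1 probe set on 1 array. Tmem67, the receptor-like protein of the same complex, was the 1 gene under the filter. It read 4.0, 7.74 and 24.7 against 17.2, 14.6 and 3.57, and was above background only on wild-type 1.

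**Figure D3:**
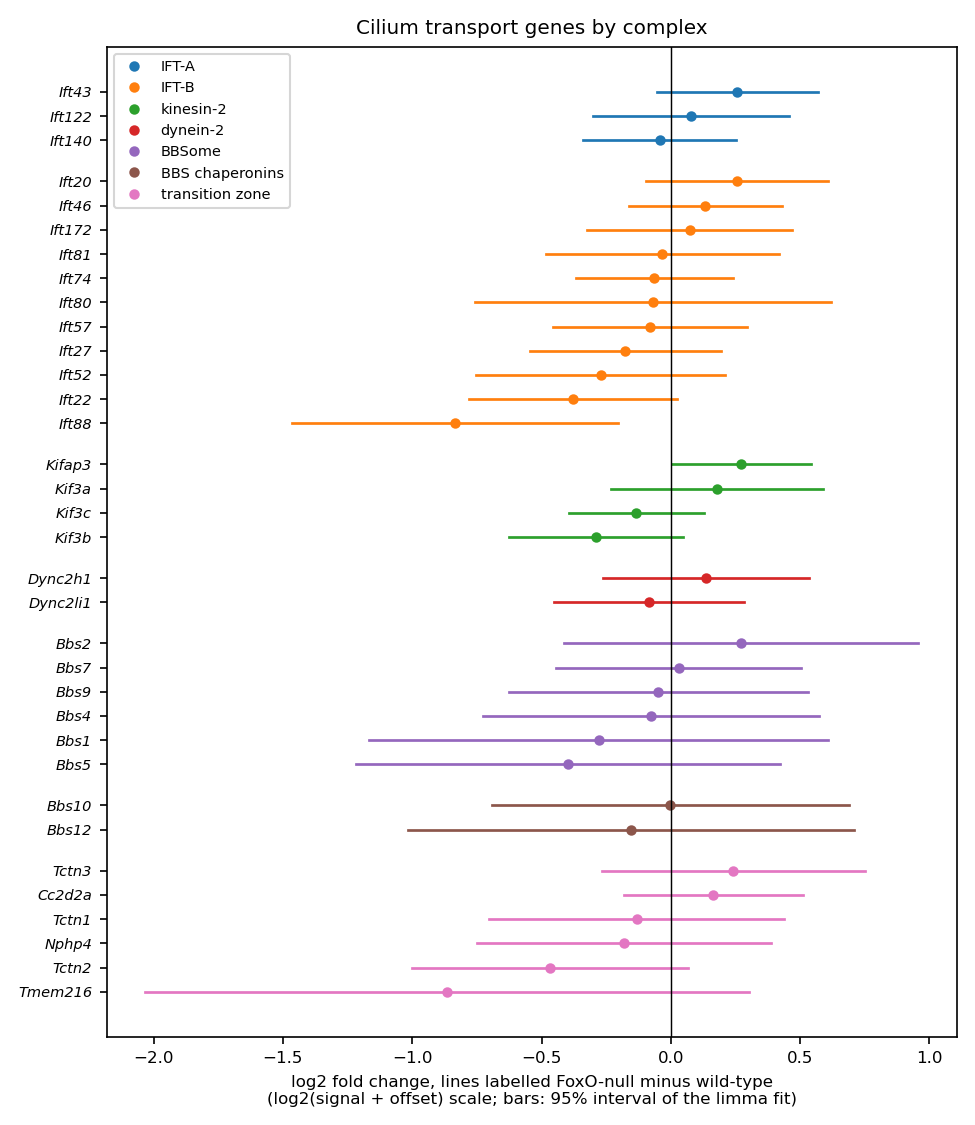
Log2 fold change (x axis, lines labelled FoxO-null minus wild-type; point and 95% interval of the limma fit) of the 34 cilium transport genes tested, grouped by complex (colours). The intervals of 32 genes include 0, and those of Ift88 and Kifap3 do not before adjustment.

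There were 59 probe sets for the 35 genes, with more than 1 for 15 genes, and in 8 of these 15 the fold changes had both signs. In a fit of all probe sets, 0 of the 59 passed (2 at an unadjusted limma p under 0.05) and the smallest adjusted p was 0.603. Those of Bbs4 ran from -0.39 to 0.86 over 4 probe sets, those of Tmem216 from -0.86 to 0.24 over 2 and those of Tctn3 from -0.78 to 0.24 over 3. Ift27 was negative in all 3, from -0.40 to -0.10, and Kif3a positive in all 4. The Ift27 probe set at -0.40 ± 0.19 (limma adjusted p 0.707) did not overlap between the groups, while its main probe set did.

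The lines also varied within groups. The highest signal over the 6 lines was less than 1.5 times the lowest in 12 of the 34 genes and at least 2 times in 8, with a median ratio of 1.59. FoxO-null 3 was the lowest line in 10 of the 34 genes, where it was lowest in 19.8% of all genes, and its median deviation from the mean of the 6 lines was -0.12 over the cilium genes and 0.01 over all genes. The other 5 lines had medians between -0.02 and 0.06 over the cilium genes. By complex, the median on FoxO-null 3 was -0.30 for the transition zone, -0.25 for the chaperonin-like genes and -0.12 for dynein-2. It was -0.09 for IFT-B, -0.04 for IFT-A, -0.02 for kinesin-2 and 0.03 for the BBSome. Only the transition zone had its lowest median on this line. The lowest medians of IFT-B (-0.16) and IFT-A (-0.13) were on FoxO-null 1, and that of the BBSome (-0.20) on FoxO-null 2. Those of the chaperonin-like genes (-0.29, wild-type 2), dynein-2 (-0.17, wild-type 3) and kinesin-2 (-0.08, wild-type 3) were on wild-type lines.

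Transport genes that carry other names did not pass either. Of 15 tested genes of the IFT complexes and their motors, 0 passed in limma and 3 had an unadjusted p under 0.05, against 10.2% of all genes, 1 of them higher and 2 lower. The lower ones were Wdr35 of IFT-A, at 113, 145 and 120 against 199, 160 and 152 (-0.42 ± 0.17), and Wdr60, a dynein-2 intermediate chain gene, at 22.7, 27.7 and 15.8 against 39.1, 35.1 and 44.1 (-0.72 ± 0.32). Neither overlapped between the groups, and 7.93% of all genes had all FoxO-null lines below without overlap. Wdr60 was dim, and its signal on FoxO-null 3 lay under that array's background level of 26.9. The higher one was Ttc30b of IFT-B, at 0.66 ± 0.28, and its groups overlapped. Their limma adjusted p lay between 0.418 and 0.480.

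Among 8 tested BBSome subunits, partners, chaperonin-like and related genes under other symbols, 0 passed. Of these, 2 had an unadjusted limma p under 0.05, against 10.2% of all genes. Bbip1, the smallest BBSome subunit, read 1538, 1550 and 1376 against 894, 1183 and 1080, with all lines labelled FoxO-null higher (0.50 ± 0.12, limma adjusted p 0.201). Ttc8, also called BBS8, read 74.7, 72.8 and 73.6 against 95.9, 95.2 and 109.8, with all of them lower (-0.41 ± 0.18, adjusted p 0.453). These subunits of 1 complex lay on opposite sides. Lztfl1, a BBSome regulator, was at -0.29 ± 0.24. Of 15 transition zone genes under other symbols, with Mks1 in this list and the one before, 0 passed. Of them, 0 had an unadjusted limma p under 0.05, against 10.2% of all genes. Invs, an inversin compartment gene, was at 0.43 ± 0.25, Rpgrip1 at -0.26 ± 0.18 and Tmem17 at -0.40 ± 0.33.

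Of 16 genes of ciliary GTPases and lipid-linked cargo transport, 0 passed in limma and 2 were lower at an unadjusted p under 0.05, against 4.9% of all genes. They were Rab3ip, the exchange factor that activates Rab8 at the cilium, at -0.35 ± 0.15, and Asap1, at -0.35 ± 0.16. The cargo release factor gene Pde6d was at 0.23 ± 0.15. Of 23 basal body and ciliogenesis genes, 0 passed in limma and the median was -0.15. At an unadjusted limma p under 0.05, 2 were lower, against 4.9% of all genes. Odf2, a mother centriole appendage gene, read 218, 273 and 220 against 306, 293 and 320 (-0.37 ± 0.13), and Cep131, a centriolar satellite gene, read 45.8, 27.2 and 50.8 against 64.0, 66.6 and 69.0 (-0.66 ± 0.26). The groups did not overlap for either, and Cep131 on FoxO-null 2 lay just under that array's background level of 27.6. All lines labelled FoxO-null lay below without overlap in 4 of the 23 (17.4%), against 7.93% of all genes. Ccp110, which caps the mother centriole and holds back the cilium, was at -0.39 ± 0.24.

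The genes that take the cilium down had mostly negative fold changes. Of the 10 tested, 2 were positive, Hdac6 (0.05 ± 0.16) and Dnmbp (0.04 ± 0.20). None of the 10 tested passed in limma (smallest adjusted p 0.224), 5 were lower at an unadjusted p under 0.05 against 4.9% of all genes, and the median was -0.35. The mitotic kinase gene Plk1 read 448, 453 and 475 against 572, 612 and 704 (-0.45 ± 0.12), the microtubule depolymerase gene Kif2c read 221, 265 and 211 against 400, 303 and 294 (-0.50 ± 0.15), and Aurka, the kinase that starts disassembly, read 363.9, 391.7 and 467 against 514, 494 and 540 (-0.34 ± 0.12). In each of these all lines labelled FoxO-null were lower. Kif2a (-0.36 ± 0.13) and Nek2 (-0.57 ± 0.24) were also lower at that p, and the groups overlapped for Nek2. Plk1, Aurka and Kif2c also act in mitosis, and the summed signal of 6 measured markers of dividing cells, none of them in the disassembly list, was 8798 to 9660 in the lines labelled FoxO-null and 11434 to 12070 in those labelled wild-type. The part of cell division in the disassembly genes was not tested. On bulk RNA, fewer cells of a kind and less RNA per cell cannot be told apart.

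The transcription factors that drive cilium genes did not pass either. Of 10 RFX, Foxj1 and related genes, 0 passed in limma and 1 was at an unadjusted p under 0.05, against 10.2% of all genes. This was Rfx4, a regulator of neural tube patterning, at 940, 1314 and 863 against 2125, 1311 and 1116 (-0.51 ± 0.22, limma adjusted p 0.455). The groups overlapped, and wild-type 1 was the highest line. Rfx3, a ciliary RFX factor of the brain, was at -0.09 ± 0.36, Foxj1 at -0.06 ± 0.28, E2f5 at 0.15 ± 0.18 and Rfx5 at 0.08 ± 0.14. Among 9 tested ciliary membrane proteins, 0 passed and 1 was higher at an unadjusted limma p under 0.05, against 5.31% of all genes. It was the adenylyl cyclase gene Adcy5, at 0.57 ± 0.25. The neuronal cilium marker gene Adcy3 was at -0.20 ± 0.24. Of 10 Hedgehog pathway genes 0 passed and 0 had an unadjusted limma p under 0.05, against 10.2% of all genes. The receptor gene Ptch1, itself a target of the pathway, read 645, 581 and 561 against 471, 540 and 495 without overlap (0.24 ± 0.11, adjusted p 0.502), while the target gene Gli1 was under the filter, Gli2 was at 0.56 ± 0.33 and Cdon at -0.29 ± 0.22.

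**Figure D4:**
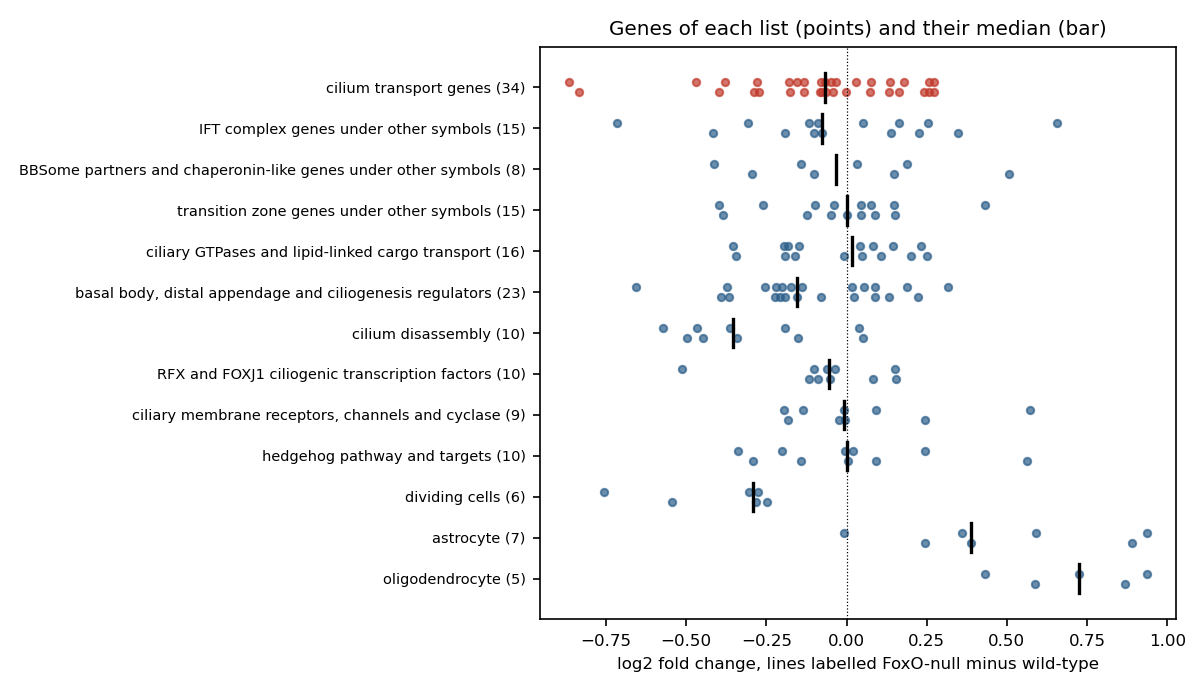
Log2 fold change (x axis, lines labelled FoxO-null minus wild-type) of each gene tested (points) and the median of each list (black bar), with the number of genes in brackets, for the cilium transport genes (red), related cilium lists and marker lists (blue). The median of the cilium transport genes is -0.07, that of the disassembly genes -0.35 and that of the oligodendrocyte markers 0.73.

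Markers of other cell types that the cultures could hold were summed per line. The summed signal of 7 astrocyte markers was 4430 to 5051 in the lines labelled FoxO-null and 3093 to 3592 in those labelled wild-type, and that of 6 oligodendrocyte markers was 8263 to 8785 against 4610 to 5788. Most of the oligodendrocyte sum was Mbp and Cnp, and Cnp passed the threshold (0.87 ± 0.12, limma adjusted p 0.0496). All lines labelled FoxO-null lay above without overlap in 4 of 5 tested oligodendrocyte markers and 4 of 7 astrocyte markers, against 8.08% of all genes. Of the myelin genes, Mog was above background on no array, while Mag and Mbp were above it on all 6, and Mbp read 4141, 4846 and 4302 against 3612, 2463 and 2853. The summed neuron markers overlapped, at 1384 to 1419 against 1328 to 1659, and most of that sum was Map2. Of the 7 neuron markers 5 had a negative log2 fold change, and Tubb3 (-0.64 ± 0.27, limma adjusted p 0.455) and Syt1 (-0.43 ± 0.26, adjusted p 0.610) were lower in every line labelled FoxO-null. The summed markers of microglia (89.3 to 109.3 against 65.6 to 109.6) and of fibroblasts and endothelium (58.3 to 100.8 against 52.6 to 80.9) overlapped as well. Aif1, Itgam, Tyrobp, Dcn and Pecam1 were above background on no array, and the microglia marker Csf1r was above it on all 6, at 47.5 to 73.4. Ependymal and motile cilium markers summed to 149 to 237 against 156 to 185. The part of these differences in the values of the cilium genes was not tested.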

How the data were processed

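One array per line was read for 3 lines labelled FoxO-null and 3 labelled wild-type, grouped by their titles. The authors deposited MAS5 signals, a linear intensity, as the submitters' processing notes name the tool. Its version and scaling target are not given in the sources used here. Of 45101 probe sets, 64 controls were left out, and 34945 had 1 gene in the platform annotation. A gene was read from its probe set of highest mean signal. Signals became log2(signal + 5.94), with the 20th percentile of the whole table as offset, which understates changes of dim genes. Genes under the 40th percentile of mean log2 values (a signal of 16.2) were left out. The groups were compared with limma 3.58.1 (lmFit and eBayes with an intensity trend) in R 4.3.3, two-sided, with Benjamini-Hochberg adjustment over 12663 genes and a threshold of 0.05. The fit was tested on simulated data for this comparison with 12663 genes and recovered 82.0% of genes changed 4-fold and 43.7% of those changed 2-fold. The simulation changed 200 genes and shuffled the spreads over the genes, so any tie of spread to brightness was lost. The recovery in the real data can differ. The number of arrays limits the precision. Alternatives were other scalings, offsets, filters, probe set rules and variance models, a replicate block, and leaving out each array. Named genes are those at an unadjusted p under 0.05, those without overlap and at least 0.3 in size, the 2 of smallest p per complex and up to 3 per further list. The remaining cilium genes are given in brief. Foxj1, Rfx3, Gli1, Hdac6, Dnmbp, Kif2a, Nek2 and the second probe sets were added after their values were seen. The limma p-values set the group difference against the spread between these lines, moderated across all genes. Whether lines came from separate animals is not stated, so the p-values speak for these lines only. The genes and lists were chosen with earlier results of these data known. All 6 value columns were used. The promoter stretch of 1 further gene is not reported here.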

Additional observations from a re-analysis of the deposited data

How the results depend on the processing

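No cilium transport gene passed under any of the 16 alternatives, with smallest limma adjusted p between 0.330 and 0.774. The count of all genes past the threshold, 5, was 0 with median centring (1047 at an unadjusted limma p under 0.05) or without the intensity trend (1107 unadjusted), 1 with quantile normalization, an offset of 1, no filter or the mean of all probe sets of a gene, and 0 to 11 when 1 array was left out (0 without FoxO-null 1, with 812 unadjusted, 1 without FoxO-null 3, 3 without either of wild-type 1 and 2, 11 without wild-type 3). The count of cilium genes at an unadjusted p, 2, was 1 with median centring, a filter at the 60th percentile or the replicate block, and 1 to 4 when 1 array was left out (4 without FoxO-null 2, and 1 without any of FoxO-null 1, wild-type 1 and wild-type 3). These counts are of 34 genes, or of 29 with that filter. The share over all genes was 8.27% with median centring, 11.9% with that filter and 10.9% with the block. With 1 array left out it ran from 6.41% to 10.4%, and it was 9.63% without FoxO-null 2. The median log2 fold change of the cilium genes, -0.07, was -0.13 with median centring, where that of all genes was -0.06, and -0.11 to -0.01 with 1 array left out. Bbs10, at 0.00, changed sign with an offset of 32 (0.0013) or the mean of its probe sets (0.15), and ran from -0.14 to 0.092 with 1 array left out. Leaving out 1 array also turned Bbs12 (-0.41 to 0.058), Bbs2 (-0.077 to 0.53), Dync2h1 (-0.012 to 0.25) and Ift122 (-0.084 to 0.20). The cause of these shifts was not tested. With the replicate number as a block 6 of all genes passed. Lines with the same number correlated at 0.02, 0.09 and 0.12 across genes in their deviations from the group means, so the numbers were not taken as pairs. Dim signals limit Ift88, Bbs1, Bbs5, Bbs10, Bbs12 and Tmem67, as well as Wdr60 and Cep131.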
